A study of Canis lupus familiaris with 17 samples.

Results

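The genes described here are those for the cytosolic ribosomal proteins, which were taken from the gene table as all symbols made of RPS or RPL followed by a digit, leaving out the RPS6K kinases and symbols ending in P and digits. The rule uses symbols only and no measured value, and it found 58 of 20257 genes. Of these, 54 are core proteins of the small or the large subunit, and 4 are paralogs, namely RPL22L1, RPL36AL, RPL3L and RPL10L. They were measured by single-cell RNA sequencing of peripheral blood leukocytes from 17 dogs of genotype Wt, each giving 1 library. The 7 healthy dogs (H1 to H7) were middle-aged, and of the 10 dogs with osteosarcoma (OS1 to OS10), a malignant bone tumor, 5 belonged to the study's middle-aged and 5 to its old class. Dogs differed in breed, leukocytes were isolated over Ficoll Paque with lysis of red cells, and the sample records name no treatment and no batch.

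The cytosolic ribosome joins a small subunit, which reads the messenger RNA, to a large subunit, which forms the peptide bond, and each of its proteins is made from its own gene and needed in about equal amounts. The messages for these proteins carry a terminal oligopyrimidine tract at their start, through which mTOR signaling adjusts their translation together with that of elongation factors. In blood, resting lymphocytes are known for a large ribosomal share of their messages, whereas mature neutrophils hold little RNA.

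The quantity used first is the ribosomal share, the percent of a cell's unique molecular identifiers (UMIs, 1 per captured message) that fell in the 58 genes, given as the median cell of each dog. A UMI counts a message once whatever its length. Whether reads from introns were counted is not known here, so shares may still depend on gene length. Shares are also relative: a higher share and fewer other messages cannot be told apart. The matrices held 93013 barcodes and between 7.74e+06 and 5.65e+07 UMIs per dog, of which 8.61% to 19.5% were ribosomal. Filters left 84345 cells, 3938 of them were removed as likely doublets, and 80407 were used. Any pair of libraries shared at most 22 barcodes. Cells were grouped without ribosomal protein and mitochondrial genes, though rows that carry no symbol and the row named CD79A stayed in, and each class name below means cells like that type by its markers.

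Not every ribosomal protein could be followed. Of 79 listed cytosolic ribosomal protein genes, 58 had a row under their own symbol, of which 54 met the rule and 4, among them RPSA, RPLP0 and FAU, did not because of their names. The other 21, among them RPS19, RPS2, RPL10 and RPL41, had no row under these symbols and were not analysed here, so the share is a lower limit of the ribosomal content. RPL10L had no UMI in any cell and RPL3L had 65 in all. RPS14, a small subunit protein whose loss causes the anemia of the 5q deletion syndrome, had the highest mean level over all cells at 6968 CPM (UMIs scaled to a common library total). RPL32 at 5322 CPM, RPS7 at 4988 CPM and RPS28 at 4952 CPM came next.

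The libraries of H2 and OS3 stood apart in most lineages. In H2 the share of CD4 T cells was 10.8%, where the next healthy dog had 20.03%, and in OS3 it was 14.7%, where the median of the dogs with OS was 22.4%. H2 had the lowest share of the 17 dogs in each T cell class in which it was measured, in B cells and in neutrophils, and OS3 the lowest but 1 in CD4 T cells, B cells and monocytes. Results between classes are therefore given with these dogs and, as a choice made after seeing the data, without them.

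Naive T cells had the highest ribosomal shares and neutrophils the lowest among classes measured in at least 4 dogs. Naive CD8 T cells held between 12.9% and 28.3% with a median of 26.2% over the 17 dogs, and naive CD4 T cells between 11.5% and 28.9% with a median of 24.1%. Regulatory CD4 T cells (21.5% ± 3.44, SD, n = 16 dogs), double negative T cells (21.4% ± 3.68, n = 14) and central memory CD4 T cells (20.8% ± 3.51, n = 17) formed the next step. Of the 1134 double negative T cells, 239 were in a cluster at 23.5%. It scored 1.06 for that name and 1.03 for naive CD8 T cells. Effector memory (TEM) CD4 T cells were at 18.6% ± 3.31, and B cells at 16.3% ± 3.03.

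**Figure D1:**
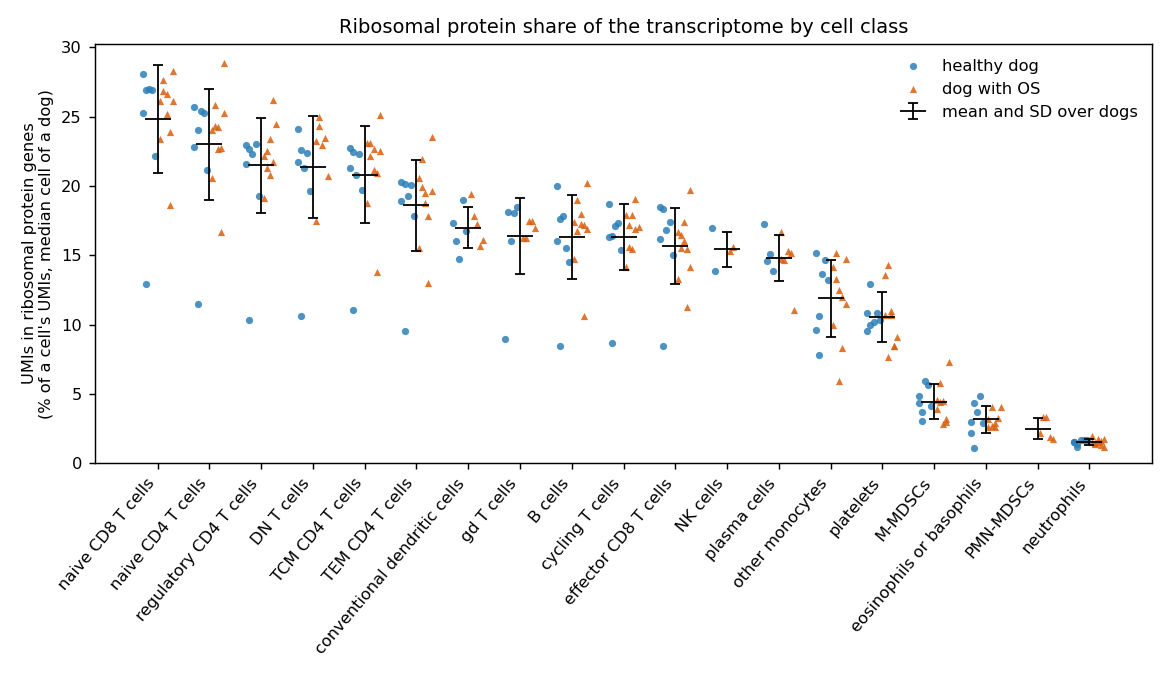
Percent of UMIs in ribosomal protein genes in the median cell of each dog, by cell class, with blue circles for healthy dogs, orange triangles for dogs with OS, and black bars for the mean and SD over dogs with at least 25 cells of the class. Naive T cells lie highest and neutrophils lowest, healthy and OS dogs overlap in each plotted class measured in both, and the lowest blue circle of the T cell classes is H2.

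Myeloid classes other than dendritic cells were lower. Monocytes other than suppressor-like cells lay between 5.91% and 15.2% with a median of 12.5% and conventional dendritic cells were at 17% ± 1.47 (n = 10), with ranges that met at 14.7% to 15.2%. Cells scored as plasmacytoid dendritic cells are not described as a class, since 1 of their 2 clusters (136 of 273 cells) was led by FGF12 and GPHA2, which are not in that marker list. Monocytic myeloid-derived suppressor-like cells (M-MDSCs), which are monocytes of an immature kind, held 4.44% ± 1.24 (n = 16), cells named as eosinophils or basophils 3.15% ± 0.948 (n = 15) and their polymorphonuclear counterparts (PMN-MDSCs) 2.5% ± 0.775 (n = 5). The PMN-MDSCs joined a cluster of 578 cells at 2.37% with 1 of 109 cells at 10.9%, whose leading genes mixed granule genes such as CAMP with PKIB, SDC2 and MRC1. Neutrophils lay between 1.15% and 1.95% with a median of 1.52%, and the ranges of the last 3 classes overlapped.

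Neighbors in this order were compared within dogs by sign-flip permutation tests with p adjusted over the 20 pairs. The pairs and their direction were set by the class means of the same shares, so these p values are descriptive. Naive CD8 T cells exceeded naive CD4 T cells by 1.83 points in 16 of 17 dogs (adjusted permutation p = 0.00020), and naive CD4 T cells exceeded regulatory CD4 T cells by 1.91 points in 15 of 16 (exact, adjusted p = 0.000305). Central memory and effector memory CD4 T cells are not compared here, since a cluster of 1993 of the 6543 central memory cells had 2 effector memory markers (ICOS, CD28) and 1 central memory marker (EFHC2) among its 10 leading genes, and another of 504 cells was led in part by the platelet genes PPBP, MYL9 and GNG11. Platelets exceeded M-MDSCs by 6.13 points in 15 of 15 dogs (exact, adjusted p = 0.000305), and M-MDSCs exceeded eosinophils or basophils by 1.49 points in 13 of 14 (exact, adjusted p = 0.00195). The platelet class joined a cluster of 3281 cells at 9.68% with 1 of 502 cells at 21.9%. The latter scored 2.22 for platelets and 1.39 for naive CD4 T cells, so this class is not platelets alone. Apart from central and effector memory cells, the other 15 neighboring pairs did not pass the test. Those measured in 5 dogs or fewer could not pass, since 5 dogs give no exact p below 0.0625. PMN-MDSCs exceeded neutrophils in 5 of 5 dogs at that p. For such pairs the test cannot tell whether the classes differ.

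Naive CD8 T cells were then set against effector CD8 T cells, the cytotoxic cells of the same lineage. Memory CD8 T cells have no class of their own here. A cluster of 1201 of the 10947 effector cells scored 2.78 for effector and 2.60 for memory CD8 T cells. Its leading genes held the memory markers PI3 and BTBD11 and the effector markers NCR3, KLRD1 and IL12RB2. The memory markers PI3, FASLG or GZMK were also among the leading genes of other clusters of the class. Effector CD8 T cells lay between 8.46% and 19.7% with a median of 16.2%. The ranges over dogs overlapped, since H2 and OS3 were low in both classes, but within each of the 17 dogs the naive cells were higher. The difference was 9.14 points ± 1.76 (SD over dogs, permutation p = 2e-05, the smallest these permutations can give, and 2.4e-05 after adjustment over 6 class comparisons), or 1.59-fold on average over dogs. Without H2 and OS3 it was 9.57 points in 15 dogs.

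Gene by gene, the rise was shared by nearly all members. On counts summed per dog and class, 49 of 56 members tested were higher in naive CD8 T cells at adjusted p < 0.01 and an absolute log2 fold change above 0.58 (edgeR quasi-likelihood test with the dog as a block), where 9.87% of all 13467 genes tested were called higher and 23.9% were called in either direction. None was lower, where 14% of all genes were. The median over the 54 core members was a log2 fold change of 0.86, against -0.05 over all genes, and 22 of 24 small subunit and 27 of 30 large subunit members were called.

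RPL13, a large subunit protein, changed most among members of at least 10 CPM. Its level was between 2956 and 8923 CPM with a median of 7458 CPM in naive and between 1478 and 4566 CPM with a median of 3467 CPM in effector CD8 T cells. The ranges overlapped over dogs, and the log2 fold change was 1.2 ± 0.04 (SE, edgeR adjusted p = 2.7e-29).

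RPL5, which with RPL11 and the small ribosomal RNA of the large subunit forms a particle that restrains MDM2 when ribosome assembly fails, differed by 1.11 ± 0.04 on the log2 scale. RPS3, which lines the entry channel for messenger RNA, differed by 1.10 ± 0.04, RPS4X by 1.08 ± 0.04 and RPL18 by 1.06 ± 0.04. Both members of the RPL5 and RPL11 particle, 5 of 5 tested proteins around the exit tunnel and 3 of 3 tested proteins of the messenger channel were called. The abundant members RPS7 (0.95), RPS28 (0.86), RPL32 (0.83) and RPS14 (0.75) were called. At the other end, RPS26 differed by 0.28 (edgeR adjusted p = 4.4e-08, below the fold threshold).

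**Figure D2:**
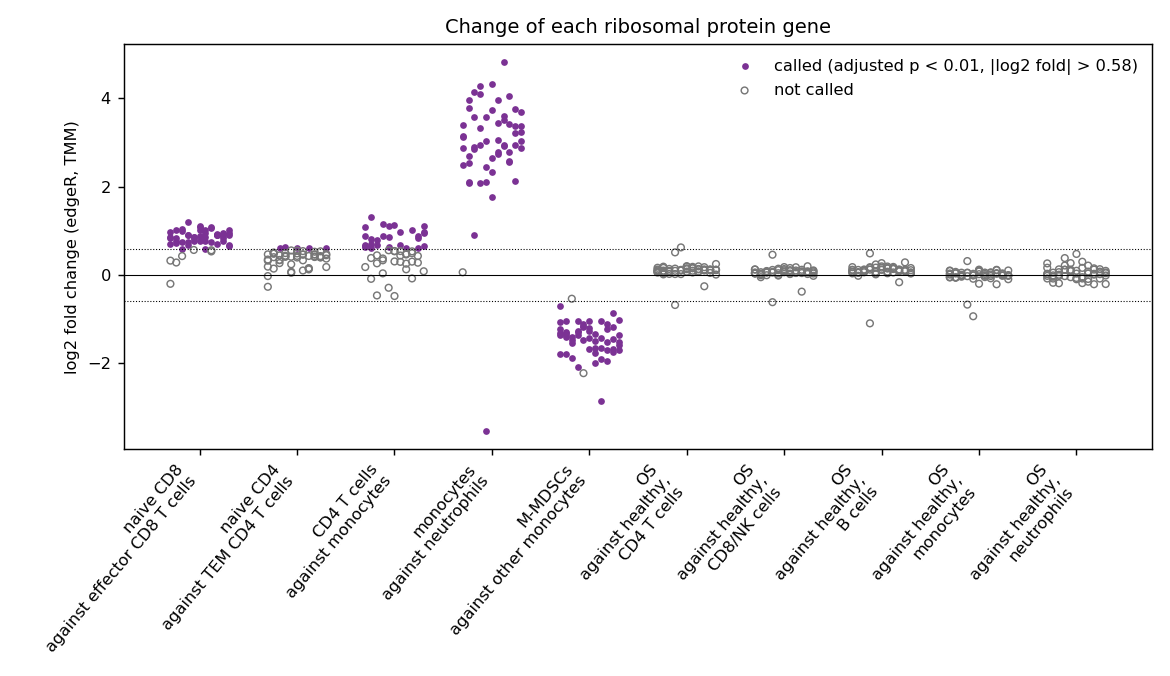
Log2 fold change of each ribosomal protein gene from edgeR in the 5 comparisons of classes and in the 5 comparisons of dogs with OS with healthy dogs, with 1 point per gene, filled where called and open where not, and dotted lines at a log2 fold change of 0.58 in either direction. Nearly all points are above zero in the comparisons of naive CD8 T cells and of monocytes with neutrophils, nearly all are below zero for M-MDSCs, and none is filled for OS.

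The remaining translation genes moved less uniformly between naive and effector CD8 T cells. Of 51 ribosome biogenesis factors tested, 15 were higher and 1 was lower, led by NPM1, a nucleolar chaperone of ribosome assembly (log2 fold change 1.28), and FBL, the methyltransferase of ribosomal RNA (0.94). Of 17 other messages with the terminal tract, 7 were higher and 1 was lower, and of 6 elongation factors 3 were higher, with EEF1B2 at 1.14. Only 2 of 61 mitochondrial ribosomal proteins were called, both higher, with a list median of 0.26. Among 23 kinases and regulators of the mTOR and S6 pathway, 2 were higher and 7 lower, the latter including RPS6KA2 (-3.41) and RPS6KA1 (-1.59). Of all genes in this comparison 9.87% were called higher and 14% lower.

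CD4 T cells showed the same order with a smaller step. Effector memory cells, of which 478 of 9410 were in a cluster without a marker of that class among its 10 leading genes, lay between 9.55% and 23.6% with a median of 19.5%, and naive cells exceeded them in 17 of 17 dogs, by 4.41 points ± 1.05 (permutation p = 2e-05, adjusted 2.4e-05), or 1.24-fold. Without H2 and OS3 the difference was 4.62 points in 15 dogs. The naive class held a cluster of 42 of its 8653 cells with the effector memory marker NTRK2 and the naive marker COL6A5 among its leading genes. A cluster of 1227 of the 9410 effector memory cells, at a share of 21.1%, scored 0.997 for that name and 0.992 for regulatory CD4 T cells. Its leading genes held the regulatory marker CTLA4 and the effector memory markers MAF and RCAN2.

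Few single members passed the fold threshold in CD4 T cells. Of 56 members tested, 5 were called, all higher in naive cells, where 7.03% of 14034 genes were called higher, 11.2% lower and 18.2% in either direction, so the count of members was close to the background. The 5 were RPS27A, which is made as a fusion with ubiquitin (0.62), RPS13 (0.62), RPL22 (0.61), RPL5 (0.61) and RPS4X (0.61), each with an SE of 0.02 to 0.03. With scaling by library size alone none was called. Yet 52 of 54 core members had an adjusted p under 0.01 and 53 of 54 had a positive log2 fold change, with a median of 0.42 against 0.01 over all genes. None of the 51 ribosome biogenesis factors and none of the 6 elongation factors was called in this comparison.

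CD4 T cells as a whole were compared with the other main lineages of the same dogs. They lay between 10.8% and 24.9% with a median of 22.1%, and exceeded B cells by 4.44 points ± 1.31 in 17 of 17 dogs (permutation p = 2e-05, adjusted 2.4e-05). They exceeded monocytes, which here include the M-MDSCs and lay between 5.15% and 14.8% with a median of 12.0%, by 9.42 points ± 2.93 in 17 of 17 dogs (the same p values). Without H2 and OS3 these differences were 4.6 and 9.98 points.

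Against monocytes, only part of the members passed both thresholds. Of 57 tested, 28 were higher in CD4 T cells and none was lower, where 27% of 15453 genes were called higher, 24.9% lower and 51.9% in either direction. RPL13 was between 2366 and 7421 CPM in CD4 T cells with a median of 5816 CPM and between 1092 and 3318 CPM in monocytes with a median of 2505 CPM, at a log2 fold change of 1.14 ± 0.09. The ranges over dogs overlapped. RPL14 was at 1.14 ± 0.09, RPL13A, which also takes part in translational silencing in myeloid cells, at 1.11 ± 0.07, and RPS23 at 1.10 ± 0.10.

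Members that were not called mostly lay on the same side, since 50 of 54 core members had a positive log2 fold change. Of the abundant members RPS7 was called (1.08 ± 0.09), and RPS14 (0.56), RPS28 (0.54) and RPL32 (0.28) had an adjusted p under 0.01 but missed the fold threshold. RPS14 and RPS28 passed it with scaling by library size alone (0.76 and 0.75) and without OS10 (0.60 and 0.58), and RPS14 also without H4 (0.59) or H6 (0.58). RPL3, which sits at the peptidyl transferase center, had a log2 fold change of 0.13 ± 0.09 (edgeR adjusted p = 0.181). RPL4 was at -0.48 and RPS26 at -0.46, neither past the fold threshold. Of the 51 ribosome biogenesis factors 31 were higher in CD4 T cells and 1 lower, led by MDN1 (1.67) and DKC1 (1.65). Of the 17 other messages with the terminal tract none was higher and 4 were lower, among them VIM (-2.51) and the elongation factor EEF2 (-0.69). The count of lower ones was near the background, since 24.9% of all genes were called lower. Of 23 mTOR and S6 pathway genes 5 were higher, 7 were lower and 11 were not called. Of all genes 27% were called higher, 24.9% lower and 51.9% in either direction, so the pathway counts were near the background. Among the 7 lower pathway genes EIF4EBP1, the repressor of cap-dependent translation that mTOR inactivates, was at -3.98.

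Neutrophils had the smallest ribosomal share of the named leukocyte classes. Monocytes exceeded them in 17 of 17 dogs, by 9.85 points ± 2.80 (permutation p = 2e-05, adjusted 2.4e-05), or 7.51-fold, and the ranges over dogs did not overlap. Without H2 and OS3 the difference was 10.3 points. Neutrophils had a median of 1723 UMIs per cell and monocytes 11206. The median mitochondrial percent was 0.0610 in the main neutrophil cluster (4478 cells) and 2.75 in the largest monocyte cluster (3181 cells). The part of depth and mitochondrial percent in the difference was not tested. Among cells with 1500 to 4000 UMIs the direction turned, with monocytes minus neutrophils at -0.04 points and monocytes higher in 5 of 12 dogs (exact p = 0.925), and without 1 cluster of very low share it was 2.92 points, as described with depth.

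RPS14 was between 2983 and 7308 CPM with a median of 5672 CPM in monocytes and between 466 and 923 CPM with a median of 666 CPM in neutrophils. RPL3 was between 647 and 1802 CPM in monocytes with a median of 1370 CPM, and between 10.7 and 90.6 CPM in neutrophils with a median of 43.5 CPM. The ranges of these 2 genes did not overlap between the classes.

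Of 57 members tested, 55 were higher in monocytes, where 34.1% of 14264 genes were called higher, 18.5% lower and 52.6% in either direction. All 54 core members were among them, from RPS15 with a log2 fold change of 1.77 to RPL3 with 4.81 ± 0.14, with a median of 3.05 against 0.37 over all genes. RPL27A (4.31), RPL13 (4.27), RPL12 (4.14) and RPS13 (4.10) followed RPL3, and the abundant members RPL32 (3.76), RPS14 (3.04), RPS28 (2.65) and RPS7 (2.48) lay on both sides of the median. RPL3L, the form of RPL3 found in muscle, was the 1 member called lower, but with 1.63 CPM in neutrophils and 0.15 CPM in monocytes it was at trace level.

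The other parts of the translation machinery were also lower in neutrophils. Of 6 elongation factors 6 were higher in monocytes, led by EEF1A1 (4.44). Of 17 other messages with the terminal tract 16 were higher, of 51 biogenesis factors 43 were higher and 3 lower, and of 61 mitochondrial ribosomal proteins 44 were higher and 3 lower. Their medians were 3.53, 2.37, 1.96 and 1.40, so the core ribosomal proteins lay between the elongation factors and the rest.

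Free RNA from lymphocytes could add ribosomal UMIs to cells that hold few. The summed level of 10 lymphocyte markers, leaving out CD79A, was between 10.8 and 73.6 CPM in neutrophils and between 3815 and 5519 CPM in CD4 T cells. CD79B was the marker of this list at 0 in neutrophils. The part of free RNA in the neutrophil values was not tested.

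The monocyte cluster named M-MDSCs had a lower share than the other monocyte clusters together. The names do not separate all cells of this kind, since a cluster of 2868 of the 13184 other monocytes, at a share of 9.97%, had 3 M-MDSC markers (IL1B, KCNJ2, MEFV) and 2 monocyte markers (FN1, IL1B) among its 10 leading genes. A cluster of 969 other monocytes and 1 of 534 neutrophils were led by interferon response genes such as OAS1. The M-MDSC cluster itself scored 3.03 for that name and 2.07 for neutrophils. CYP4F22, a leading gene of neutrophil clusters, was among its 10 leading genes. The marker lists for M-MDSCs and neutrophils both hold CD4, S100A12 and CSF3R. The study described lower ribosomal transcripts in its own M-MDSC cluster of these dogs. Most M-MDSC markers used here come from the study's list for that cluster, so the comparison below is not independent of its finding. Over the 16 dogs with both classes, other monocytes were at 11.7% ± 2.79 and M-MDSCs at 4.44% ± 1.24, with a difference of 7.27 points ± 1.97 in 16 of 16 dogs (exact p = 3.1e-05, also after adjustment over 6), or 2.68-fold. Without H2 and OS3 the difference was 7.60 points. M-MDSCs had a median of 5944.5 UMIs per cell against 11725, and by dog a mitochondrial percent of 0.188 to 0.752 against 1.9 to 3.24, and the part of these measures was not tested. Among cells with 1500 to 4000 UMIs the difference turned to -1.51 points, with other monocytes higher in 1 of the 3 dogs left. Of the other monocytes at this depth 67.9% came from 1 cluster of very low share, and without it the difference was 7.56 points in the 1 dog left.

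Of 57 members tested, 55 were lower in M-MDSCs and none was higher, where 19.2% of 14042 genes were called lower, 8.02% higher and 27.2% in either direction. All 54 core members were lower, with a median log2 fold change of -1.41 against -0.19 over all genes. RPL3 fell most, from a median of 1439 CPM (692 to 1868 CPM) in other monocytes to 198 CPM (90.0 to 416 CPM) in M-MDSCs, without overlap between the classes, at -2.84 ± 0.07 (edgeR adjusted p = 1.9e-34). RPL13 was at -2.08, RPL15 at -1.98, RPS4X at -1.95 and RPL18 at -1.89, each with an SE of 0.06 to 0.07. Of the abundant members, RPL32 was at -1.45, RPS7 at -1.37, RPS14 at -1.15 and RPS28 at -1.03. RPL21, the core member with the smallest difference, was at -0.87.

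Elongation factors were lower in M-MDSCs in 6 of 6 tested, and other messages with the terminal tract in 14 of 17. The remaining lists were called in part: 31 of 51 biogenesis factors were lower and 1 higher, 35 of 61 mitochondrial ribosomal proteins and 21 of 36 initiation factors were lower, the latter with 1 higher. FBL was at -2.14 and NPM1 at -1.74. Of 23 mTOR and S6 pathway genes, 5 were lower, 1 was higher and 17 were not called, with a list median of -0.08. These counts were near the background, where 19.2% of all genes were called lower and 8.02% higher.

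RPL22 and RPL22L1 differed most from each other between monocytes and neutrophils. RPL22 is a large subunit protein that mice can live without but that developing T cells need, and RPL22L1 is its paralog, which can take its place in the ribosome. RPL22 had a median of 1424 CPM in monocytes (840 to 1839 CPM) and of 121 CPM in neutrophils (32.5 to 172 CPM), with no overlap and a log2 fold change of 3.68 ± 0.12. RPL22L1 had means of 115 CPM and 118 CPM, with a log2 fold change of 0.06 ± 0.10 that was not called (edgeR adjusted p = 0.608) and turned sign, to -0.02, with scaling by library size alone. The pair was called in the same direction in CD4 T cells against monocytes (RPL22 0.66, RPL22L1 0.65) and in M-MDSCs (-1.37 and -0.69). Neither gene passed the fold threshold in CD4 T cells against monocytes without the clusters of very low share (0.56 and 0.57), and RPL22L1 missed it in M-MDSCs with scaling by library size alone (-0.54). RPL22L1 was not called between naive and effector CD8 T cells (-0.20) or within CD4 T cells (-0.03), where RPL22 was at 1.01 and 0.61.

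The paralog's percent of the summed UMIs of both genes restates these values and was computed after they had been seen, so it is given as a description with no test. It was 7.95% ± 3.68 in monocytes and 50.9% ± 8.25 in neutrophils, between 4.65% and 18.8% and between 41.2% and 75% by dog. It was 6.17% ± 0.797 in naive and 13.2% ± 1.29 in effector CD8 T cells, and 6.10% ± 0.766 in naive and 9.20% ± 0.850 in effector memory CD4 T cells. In M-MDSCs it was 12.2% ± 5.97 against 7.96% ± 3.65 in other monocytes, and in CD4 T cells 7.34% ± 0.651.

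**Figure D3:**
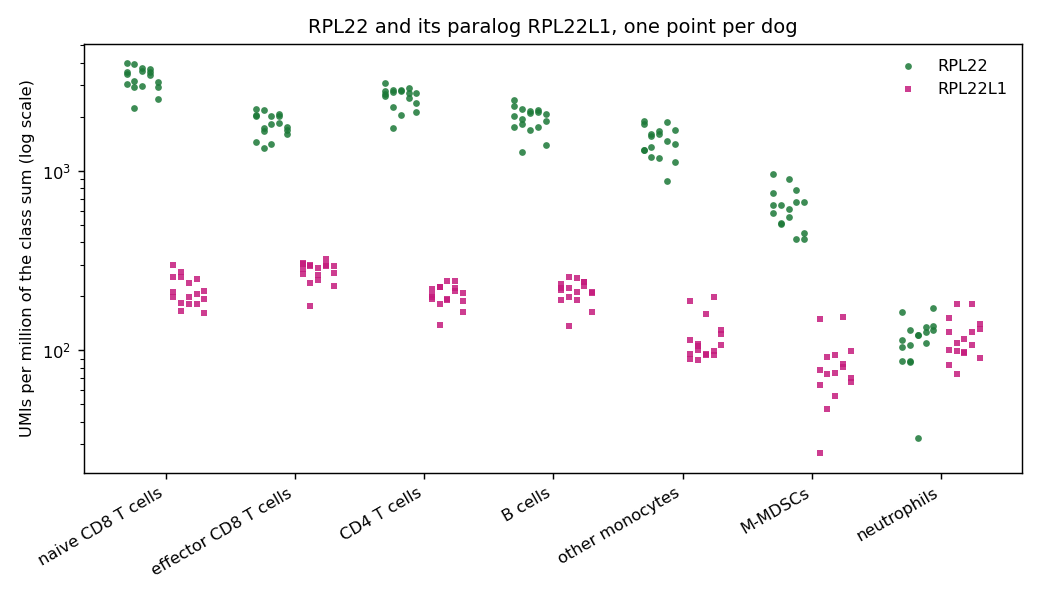
RPL22 (green circles) and RPL22L1 (magenta squares) in CPM of the summed counts of each dog, 1 point per dog, in 7 classes on a log axis. RPL22 is highest in naive CD8 T cells and lowest in neutrophils, where its median of 121 CPM is close to that of RPL22L1, while RPL22L1 stays within a narrower range.

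RPL36AL, the autosomal relative of RPL36A, changed less than the median core member in each class comparison. Some core members changed less still, such as RPS26 between naive and effector CD8 T cells (0.28) and RPL13A between naive and TEM CD4 T cells (0.05). It was at 970 CPM in CD4 T cells and 701 CPM in monocytes, and between 305 and 538 CPM in neutrophils. It was higher in monocytes than in neutrophils by 0.91 ± 0.10 on the log2 scale and passed both thresholds in none of the 4 other class comparisons, with log2 fold changes of 0.43 (naive CD8), 0.27 (naive CD4), 0.26 (CD4 against monocytes) and -0.54 (M-MDSCs).

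The share moved with the depth of the cell in myeloid cells. Spearman's rho between a cell's UMIs and its share, computed within each dog and given as a description, had a median of 0.38 in monocytes other than M-MDSCs and 0.57 in M-MDSCs, between -0.13 and -0.01 in the T and B cell classes and -0.24 in neutrophils. Among these other monocytes, cells with 8000 to 20000 UMIs held 12.6% ± 2.86 (17 dogs), those with 4000 to 8000 UMIs 6.49% ± 3.61 (15 dogs) and those with 1500 to 4000 UMIs 1.33% ± 2.01 (8 dogs). Without 1 cluster of very low share, described after the matched depth, the same ranges held 12.8% (17 dogs), 8.88% (13 dogs) and 10.6% (2 dogs).

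**Figure D4:**
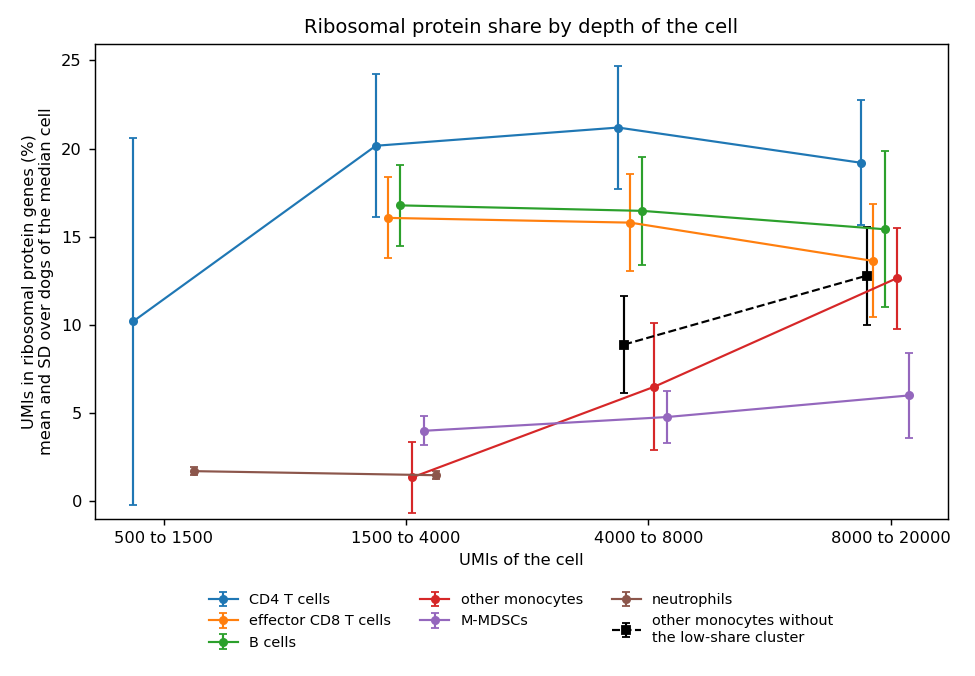
Ribosomal share by the number of UMIs in the cell, as the mean and SD over dogs of the median cell in each range, for ranges with at least 25 cells in at least 3 dogs. The black dashed line leaves out the monocyte cluster of very low share. Lymphocytes keep 13.6% to 21.2% from 1500 UMIs on, and other monocytes go from 1.33% to 12.6% with that cluster and from 8.88% to 12.8% over the last 2 ranges without it.

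At a matched depth of 1500 to 4000 UMIs the monocyte comparisons changed. Monocytes minus neutrophils came to -0.04 points over 12 dogs (exact p = 0.925), and other monocytes minus M-MDSCs to -1.51 points over the 3 dogs with enough cells (exact p = 0.50, where 0.25 is the smallest possible). Of the monocytes at this depth 46.6% came from 1 cluster of very low share, described next. Of the monocytes other than M-MDSCs it made up 67.9%. Without it, monocytes exceeded neutrophils by 2.92 points in 6 of 6 dogs (exact p = 0.0313), and 236 of those 402 monocytes were M-MDSCs and 166 were other monocytes. CD4 T cells exceeded monocytes by 20.02 points in 12 of 12 dogs with that cluster (exact p = 0.000488) and by 17.8 points in 6 of 6 without it. Naive CD8 minus effector CD8 T cells was 10.7 points in 3 of 3 dogs (exact p = 0.25, the smallest possible), and naive CD4 minus effector memory CD4 T cells 4.61 points in 10 of 10 (exact p = 0.00195).

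CD4 T cells, CD8 and NK cells, B cells and monocytes each held 1 cluster of cells with a median share under 1%. These clusters were formed without genes of ribosomal symbols but with the row named CD79A and the rows without a symbol left in. They had median shares of 0.510% in CD4 T cells (630 cells), 0.512% in CD8 and NK cells (349 cells), 0.427% in B cells (662 cells) and 0.372% in monocytes (1213 cells), where the other clusters of those lineages held 21.5%, 17.4%, 17.1% and 12.4%. By dog their medians went up to 8.06%, 6.27%, 4.17% and 1.57%, so the cells were not near zero in each dog. A cluster of 244 cells named as eosinophils or basophils, a class of low share throughout, was also under 1% (0.648%) and is not among the 4. All 17 dogs contributed to each of the 4. They made up 2.26% of CD4 T cells, 2.30% of CD8 and NK cells, 9.42% of B cells and 8.33% of monocytes, and in B cells between 2.0% and 17.2% by dog.

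These cells were also poor in other messages of translation. Their other messages with the terminal tract took 0.260% to 0.575% of UMIs against 1.47% to 2.84% in the other clusters, and elongation factors 0.0700% to 0.0971% against 0.379% to 0.441%. Ribosome biogenesis factors took 0.137% to 0.255% against 0.208% to 0.347%. The cells had fewer UMIs (medians of 2582 to 5256 against 4148 to 11595) and a higher mitochondrial percent (4.38% to 5.99% against 2.34% to 4.89%). Whether these 2 measures have a part in the low share was not tested. The study left out clusters of poor quality among its CD4 T cells and myeloid cells, and saw more such clusters when introns were counted. Whether the low-share cells here correspond to those clusters was not tested. The CD4 cluster had no name by its markers and was in no class, and without the other 3 the class differences were 9.03 (naive CD8 minus effector CD8), 8.90 (CD4 minus monocytes), 4.05 (CD4 minus B), 10.4 (monocytes minus neutrophils) and 7.76 points (other monocytes minus M-MDSCs).

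Dogs with OS were then compared with healthy dogs. In CD4 T cells the share was between 10.8% and 22.9% with a median of 22% in healthy dogs and between 14.7% and 24.9% with a median of 22.4% in dogs with OS. In monocytes it was between 7.64% and 14.8% with a median of 12.9% against 5.15% to 14.3% with a median of 11.7%, and in neutrophils between 1.15% and 1.68% against 1.15% to 1.95%. The groups overlapped in each class.

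No difference in share between the groups was detected. Exact 2-sided Wilcoxon rank-sum tests gave p = 0.536 in CD4 T cells and B cells, 0.962 in CD8 and NK cells, 0.601 in monocytes and 1 in neutrophils and in all cells, and each was 1 after adjustment over 6. The 95% intervals of the shift (Hodges-Lehmann, dogs with OS minus healthy) were -2.13 to 2.86 points in CD4 T cells, -3.45 to 3.57 in CD8 and NK cells, -2.0 to 3.48 in B cells, -3.59 to 3.23 in monocytes and -0.198 to 0.277 in neutrophils. For the 6 class differences described above no difference between the groups was detected either (exact rank-sum, adjusted p of 0.944 to 1). No interval was computed for them.

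No member was called between the groups in CD4 T cells, CD8 and NK cells, B cells, monocytes or neutrophils, where 0% of 9756 to 14477 genes were called by edgeR. No member had an unadjusted p under 0.05 in any of the 5 classes, and DESeq2 called no member either. The member with the smallest unadjusted p was RPL37 in the 4 classes other than neutrophils, at 5.17 CPM in dogs with OS against 8.5 CPM in healthy dogs in CD4 T cells (log2 fold change -0.68 ± 0.41). RPL26, at 677 CPM in dogs with OS and 480 CPM in healthy dogs in CD4 T cells, had a log2 fold change of 0.51 ± 0.36, and RPS23 one of 0.25 ± 0.23. In neutrophils RPL13A was at 0.27 ± 0.16 and RPL27A at 0.48 ± 0.29. The core members had a median log2 fold change of 0.11 in CD4 T cells and 0.01 in monocytes.

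RPL31 and RPL26 varied most between dogs among the 55 members of at least 10 CPM in CD4 T cells and B cells. RPL37, which was below that level at 0.788 to 12.3 CPM in CD4 T cells, was not ranked. Each member was expressed as a percent of all member UMIs of the dog, which takes out the shift common to a library. The SD over dogs of its log2 value had a median of 0.12 over these members in CD4 T cells, and RPL31 had 1.71 and RPL26 0.83, both large subunit proteins near the exit tunnel. RPL4 (0.44) and RPL34 (0.40) were next. RPL31 and RPL26 led in B cells as well, with 1.76 and 0.82.

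RPL31 in CD4 T cells was at 458 CPM in OS1 and 192 CPM in H1, at a median of 54.1 CPM over the 17 dogs, and at 16.3 CPM in OS2, 5.21 CPM in OS4 and 4.61 CPM in OS8. The same dogs were at the ends in B cells (351 CPM in OS1, 3.71 CPM in OS8) and in monocytes (430 CPM in OS1, 2.84 CPM in OS8). RPL26 was at 1600 CPM in OS1, 1427 CPM in OS2 and a median of 443 CPM in CD4 T cells, and OS1 was also highest in B cells (1373 CPM) and monocytes (1126 CPM). RPS14, shown for contrast, stayed between 4211 and 10758 CPM in CD4 T cells. Both genes have near-identical processed copies in mammalian genomes, so their counts are uncertain where a read matches more than 1 copy.

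**Figure D5:**
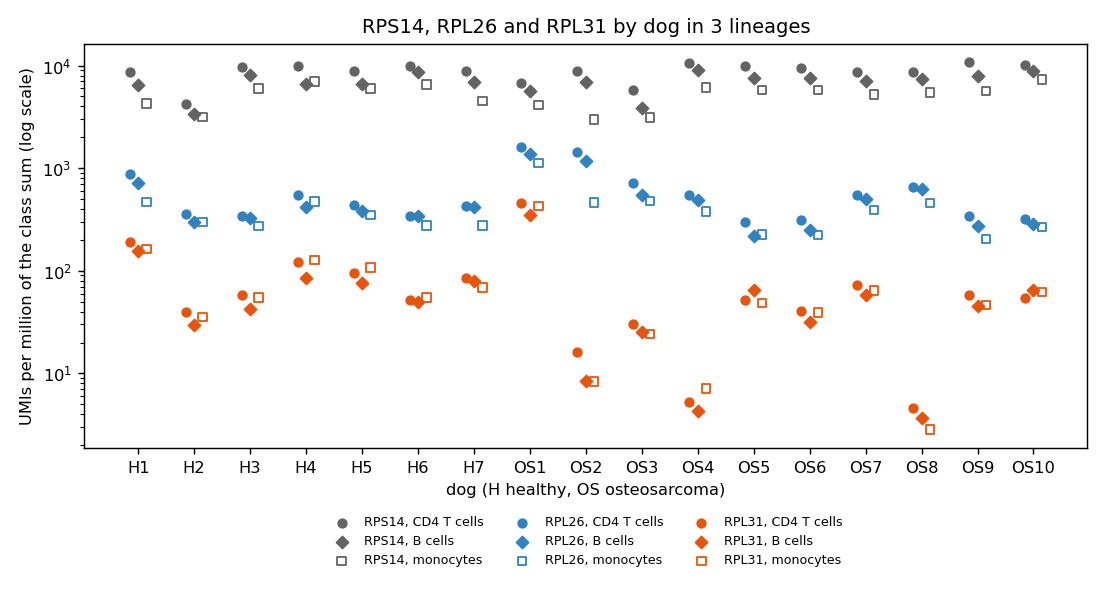
RPS14 (grey), RPL26 (blue) and RPL31 (orange) in CPM of the summed counts of CD4 T cells (circles), B cells (diamonds) and monocytes (open squares) of each dog, on a log axis. RPL31 spans from 4.61 CPM in OS8 to 458 CPM in OS1 in CD4 T cells, and OS1 and OS8 are also its ends in B cells and monocytes.

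The low libraries differed from this pattern, since they were low across members. In CD4 T cells of H2, 53 of 53 core members were below the median of the other dogs, by a median of -1.01 on the log2 scale, from -1.48 for RPL7A to -0.24 for RPL4. Other messages with the terminal tract had a median of -0.61 and mitochondrial ribosomal proteins -0.50, ribosome biogenesis factors 0.00 and all genes 0.37. In OS3, 50 of 53 core members were below, with a median of -0.64, and RPL26 was above by 0.69. Lymphocyte markers other than CD79A summed to 5519 CPM in the CD4 T cells of H2, the highest of the 17 dogs, and with CD79A to 9558 CPM, the lowest.

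OS2 was low in monocytes but not in CD4 T cells. Its monocytes other than M-MDSCs had 5.91%, the lowest of the 17 dogs, with 51 of 53 core members below the median of the other dogs by a median of -0.93, while in its CD4 T cells the median was -0.01. H2 and OS3 had shares of 7.78% and 8.28% in the same class.

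A dog's share in CD4 T cells was related to its share in monocytes. Over the 17 dogs Pearson's r was 0.589 (permutation p = 0.0121) and Spearman's rho 0.615 (permutation p = 0.01). Without H2 and OS3, which were the 2 dogs farthest from the median, r was 0.402 (permutation p = 0.137) and rho 0.504 (permutation p = 0.0576), so the relation no longer passed the test. Leaving out any single dog gave an r of 0.516 to 0.788. Within groups r was 0.704 in the 7 healthy dogs (exact permutation p = 0.0196) and 0.558 in the 10 dogs with OS (permutation p = 0.0891). The healthy group includes H2 and the OS group OS3, and neither r was computed without that dog.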

How the data were processed

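Leukocytes of 17 dogs were profiled by droplet single-cell sequencing from the polyadenylated end of messages. The deposited values are whole-number UMI counts per gene and barcode, 1 filtered matrix per dog, made by the authors with Cell Ranger 7.0.0 against CanFam3.1, with Seurat also named in the submitters' processing notes. The authors ran the alignment both counting introns and not, and the sources used here do not say which output was deposited. No correction for free RNA was made here.

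Cells with 200 to 4500 genes, 500 to 20000 UMIs and at most 10% mitochondrial UMIs were kept, and doublets were removed by a simulated-doublet score at an expected 0.8% per 1000 cells. Cells were clustered without ribosomal and mitochondrial genes (2000 variable genes, 30 components, batch correction by dog, 20 neighbors, leidenalg 0.10.2, seed 1). This gave 33 clusters and, within the main lineages, 50 subclusters. They were named from a fixed list of markers, taken from the study's marker lists and from textbook lineage genes. The study chose its lists on these same dogs. Clusters without a name (809 CD4 T cells from healthy and 811 from OS libraries, 95 and 179 myeloid and 24 and 96 other cells) and a cluster named as a mixture with platelets or erythrocytes (29 and 75) entered no class. The dog was the replicate, and a class needed 25 cells in a dog. Differences in share between classes were tested by sign flips within dogs (2-sided, exact up to 16 dogs, otherwise 100000 resamples), and between groups by exact rank-sum tests. Summed counts were tested over genes with at least 10 counts over the sums by edgeR 4.0.16 (TMM, quasi-likelihood, R 4.3.3), with the dog as a block between classes, and p-values were adjusted over all genes tested by the Benjamini-Hochberg method. The thresholds were an adjusted p under 0.01 and an absolute log2 fold change above 0.58. DESeq2 1.42.0, other scalings and filters were alternatives.

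Tested on simulated data, the edgeR step found 93% of genes changed by 1 on the log2 scale and 100% of those changed by 2 among 13123 genes in the naive and effector CD8 T cell sums. For OS against healthy CD4 T cells it found 96% and 100% among 14275 genes. The changed genes, 100 of each size, were drawn from genes with a mean of at least 10 CPM, so lower genes were not covered. Simulated dogs differed in library size but had no expression shift of their own, unlike H2 and OS3. Recovery of changes in the ribosomal members alone was not tested in either comparison, so these percents are not values for the members.

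The ribosomal members, the gene lists and the tests were chosen with earlier results of these data known. Members named in the text were, in each class comparison, the 5 with the largest change in each direction past both thresholds at 10 CPM or more, the paralogs with their parent genes and the 5 of highest mean level, and between groups the 3 with the smallest p. RPS26, RPL4, RPL21, RPS15, RPL31, RPL34, EEF2, RPS6KA1 and the genes read in single libraries were named after their values were seen. Some members that this rule chose are not reported here. Reads shared between a ribosomal gene and its processed copies could not be separated in these counts.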

Additional observations from a re-analysis of the deposited data

Results flagged for a closer look

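In 14 of the 43 groups of 4 to 10 dogs tested, the highest or lowest ribosomal share lay apart from the others by Dixon's test at the 5% level, where chance flags about 5% of groups. Of these, 11 were the same library, H2, which was lowest among the healthy dogs in each T cell class tested, and these 11 are not independent of each other.

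H2 had 10.8% in CD4 T cells as a whole, 11.5% in naive, 11.0178% in central memory, 9.55% in effector memory and 10.3% in regulatory CD4 T cells, while the nearest healthy dogs had 20.03%, 21.2%, 19.7%, 17.8% and 19.3%. It had 9.49% in CD8 and NK cells together, 12.9% in naive and 8.46% in effector CD8 T cells, 10.6% in double negative, 8.95% in gamma delta and 8.65% in cycling T cells. The nearest healthy dogs there had 15.4%, 22.1%, 14.9965%, 19.6%, 16.0048% and 15.4%. OS3 had 18.6% in naive CD8 T cells, where the nearest dog with OS had 23.4%.

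The other flags were a low share in the plasma cells of OS8 (11.0335%, nearest 14.6%) and a high share in the platelets of H7 (12.9%, nearest 10.9%). The platelet class also holds the cluster of 502 cells that scored next for naive CD4 T cells.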

How the results depend on the processing

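The 6 differences in share between classes kept direction and call under 73 of 78 alternative values and in each of the 102 that left out 1 dog, with ranges of 8.96 to 9.43 (naive against effector CD8), 4.30 to 4.56 (naive against TEM CD4), 8.93 to 9.81 (CD4 against monocytes), 4.27 to 4.57 (CD4 against B), 9.64 to 10.2 (monocytes against neutrophils) and 7.07 to 7.56 points (other monocytes against M-MDSCs). The exceptions were all at 1500 to 4000 UMIs. Monocytes minus neutrophils turned to -0.0370 and other monocytes minus M-MDSCs to -1.51 points, and naive minus effector CD8 T cells (10.7 points) lost the call with 3 dogs left. Without the clusters of a median share under 1%, an alternative added after seeing the data, the last was 10.5 points and other monocytes minus M-MDSCs 7.56 points in 1 dog. Counts of members called stayed within 1.5 times under the alternatives between classes, leaving out 1 dog included (47 to 50, 5, 25 to 31, 56, and 54 to 55), except that scaling by library size alone took naive against TEM CD4 T cells from 5 to 0. For CD4 T cells against monocytes the count ran from 20, 1 of them lower, without the clusters of low share to 40 with scaling by library size. That scaling also moved the percent of called genes that were higher from 41.3 to 28.9 for naive CD8 and from 29.5 to 42.8 for M-MDSCs, where DESeq2 gave 38.5. No named member turned direction among those called.

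For OS, no share passed the test in any setting, and the sign was not stable. At 1500 to 4000 UMIs it turned in CD8/NK cells (-1.46), B cells (-0.192), monocytes (0.959) and neutrophils (-0.00588), and with the clusters of low share also removed the values were -1.56, -0.0689 and -0.00588 in CD8/NK cells, B cells and neutrophils and -3.27 in monocytes (-0.482 with all cells). With middle-aged dogs with OS only, all cells (-0.266), CD8/NK cells (-0.256) and neutrophils (-0.111) turned, and without H2 and OS3, also added after seeing the data, CD8/NK cells (-0.128) and neutrophils (-0.0183). Leaving out 1 dog gave -0.305 to 1.37 in all cells, -0.525 to 1.77 in CD4 T cells, -0.755 to 1.13 in CD8/NK cells, -0.109 to 1.82 in B cells, -1.15 to 0.187 in monocytes and -0.0411 to 0.0623 points in neutrophils. The lowest value came without H2 in each. The causes of these turns were not tested. The relation between CD4 and monocyte shares fell to an r of 0.402 without H2 and OS3.

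Numbers such as H1 and OS1 name different dogs, and 2 of 7 same-numbered pairs had a correlation above 0.1 (-0.194 to 0.181), so the numbers pair nothing. With the replicate block, 0 members were called in each of the 5 lineages, and the differences in share were 0.787 in all cells, 0.643 in CD4 T cells, 0.983 in CD8/NK cells, 0.718 in B cells, -0.939 in monocytes and 0.0886 points in neutrophils. Between classes, which come from the same dogs, the fit with no replicate block called 46, 5, 28, 56 and 53 members. Neutrophils were shallow, at 1723 UMIs per cell, of which about 1.5% were ribosomal.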

Other observations

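Ribosomal protein genes that the symbol rule leaves out did not all have the same pattern. RPSA and RPLP0 followed the members, with RPSA at a median of 5418 CPM in naive CD8 T cells, 4132 CPM in CD4 T cells, 1936 CPM in monocytes other than M-MDSCs and 143 CPM in neutrophils. FAU, which is made as a fusion of a ubiquitin-like protein with a ribosomal protein of the small subunit, was at 6640, 6072 and 4123 CPM in the same first 3 classes and still at 2631 CPM in neutrophils (1733 to 3040 CPM over the 17 dogs).

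The row named CD79A, a B cell receptor component, had the pattern of a ribosomal gene. Its median was 11299 CPM in naive CD8 T cells, 9203 CPM in CD4 T cells, 6547 CPM in B cells, 3389 CPM in monocytes other than M-MDSCs and 234 CPM in neutrophils, whereas MS4A1, a B cell marker, was at 250 CPM in B cells and at 0.528 CPM or below in the other classes and CD79B at 28.6 CPM in B cells and 0 in the rest. In the RefSeq gene table of another assembly, no protein-coding gene lies between CD79A and RPS19, and RPS19 is among the genes with no row of its own here. The row was not left out when cells were grouped. Whether reads of RPS19 were counted under CD79A was not tested, since reads were not used here.

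Other rows had this pattern too. Over 118 sums of a class in a dog, which share libraries and depth, the log2 level of each row of at least 1000 CPM was correlated with that of the summed members, as a description. Of 20 rows without a symbol 18 had an r above 0.9, against 13 of 60 rows with another symbol. Those included CD79A (0.989), NACA (0.982), EEF1B2 (0.973), MYO7A (0.945), EEF1A1 (0.930) and DYRK1B (0.924). The rest were the mitochondrial genes MT-ND4 (0.946), MT-ND1 (0.946), MT-CO2 (0.944), MT-ATP6 (0.944), MT-CO3 (0.942), MT-CYB (0.937) and MT-CO1 (0.913). An r above 0.9 is therefore not particular to ribosomal genes. MYO7A, a myosin of hair cells, was at a median of 5896 CPM in CD4 T cells and 453 CPM in neutrophils.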
